A study of Anser cygnoides with 12 samples.

Results

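The genes of purine synthesis, salvage and breakdown were described in the lower small intestine (ileum) of Yangzhou geese (Anser cygnoides), a domestic breed. A list of 42 gene names was matched to the names in the deposited table, and 37 of its 19836 genes carried one of them. PFAS, IMPDH1, PNP, NT5C and ENTPD8 matched no name. The 37 genes fell into 7 steps: synthesis of phosphoribosyl pyrophosphate and inosine monophosphate (IMP), 7 genes; the branches to AMP and GMP, 4; one-carbon supply, 4; salvage, 5; deamination, 6; intracellular nucleotidases, 6; and the ectonucleotidase family, 5. PRPS2, a phosphoribosyl pyrophosphate synthetase, had 4 counts in lactulose 3 and 0 in the other 11 libraries, and was not tested. The other 36 genes were tested.

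The series holds 12 poly(A) RNA libraries from 3 diets of 4 libraries each, from a study of lactulose, gut health and uric acid metabolism. Lactulose geese received a diet with 21% crude protein to which 0.3% lactulose was added (libraries 2, 3, 5 and 6). Lactulose is a synthetic disaccharide that gut bacteria ferment. High protein geese received 21% crude protein alone (libraries 1, 3, 4 and 5), and control geese a basal diet with 18% (libraries 3, 4, 6 and 7). The labels give no genotype, and neither age nor sex is given in the labels used here. Nor is it said whether each library is a different bird, and p-values then describe only how these samples vary, which may be technical.

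Purine nucleotides are built step by step on phosphoribosyl pyrophosphate until IMP, from which AMP and GMP branch, while salvage enzymes rebuild nucleotides from free bases and nucleosides. Breakdown runs through nucleotidases, deaminases and purine nucleoside phosphorylase to hypoxanthine and xanthine, which xanthine dehydrogenase oxidises to uric acid. In birds uric acid is the main form in which surplus nitrogen leaves the body, so that the pathway serves nitrogen disposal as well as nucleotide supply, most of all in liver and kidney.

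Libraries held 38706155 to 48251825 counts, and the purine genes took 0.162% (control 3) to 0.214% (lactulose 5) of them. All 20 enterocyte markers, genes of the absorptive epithelium, were detected, and their summed level was 1589 to 6815 FPKM in lactulose, 1645 to 5918 in high protein and 1641 to 5417 in control libraries. The lowest enterocyte levels were those of lactulose 2, control 6 and high protein 3. Lactulose 3 and 5 were nearly identical: their squared difference per count was 7.41, against 29.5 to 244 for the other 17 pairs within diets. Several step medians of the lactulose comparisons, and the fold change of AMPD2, are given without this pair as well. Other fold changes, such as those of APRT, MTHFD2, GMPS and the neighbouring pathways, are given with it only, and may rest on it. Control 3 correlated least with the other libraries (median r of log2 CPM across genes 0.938, against 0.957 to 0.963), and 18 of the 36 purine genes tested had their lowest FPKM there. The share of all genes lowest there was not computed, so the count is not shown to be a trait of the purine genes. The edgeR scaling factor of control 3 was 0.806, against 0.912 to 1.15 elsewhere. FPKM values carry no such factor, so that a difference of mean FPKM and a fitted fold change can differ in size or sign. In bulk tissue, fewer cells of a type and less RNA per cell cannot be told apart.

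The purine genes covered a wide span of levels (FPKM, the authors' value per transcript length and library size). HPRT1, which salvages hypoxanthine and guanine, had the highest mean over the 12 libraries, 52.8 FPKM. NT5C3A, a nucleotidase known for pyrimidine nucleotides, followed with 45.5 FPKM. NT5C1B, a cytosolic AMP nucleotidase, averaged 41.5 FPKM, and IMPDH2, which takes IMP to the GMP branch, 37.5 FPKM. The ranges over libraries of these 4 genes overlapped: 43.9 to 67.7, 33.1 to 59.4, 31.4 to 53.4 and 28.3 to 49.3 FPKM. At the low end stood AMPD1, the AMP deaminase known from skeletal muscle, with a mean of 0.172 FPKM, ENTPD3 with 1.06 and SHMT1 with 2.36.

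**Figure D1:**
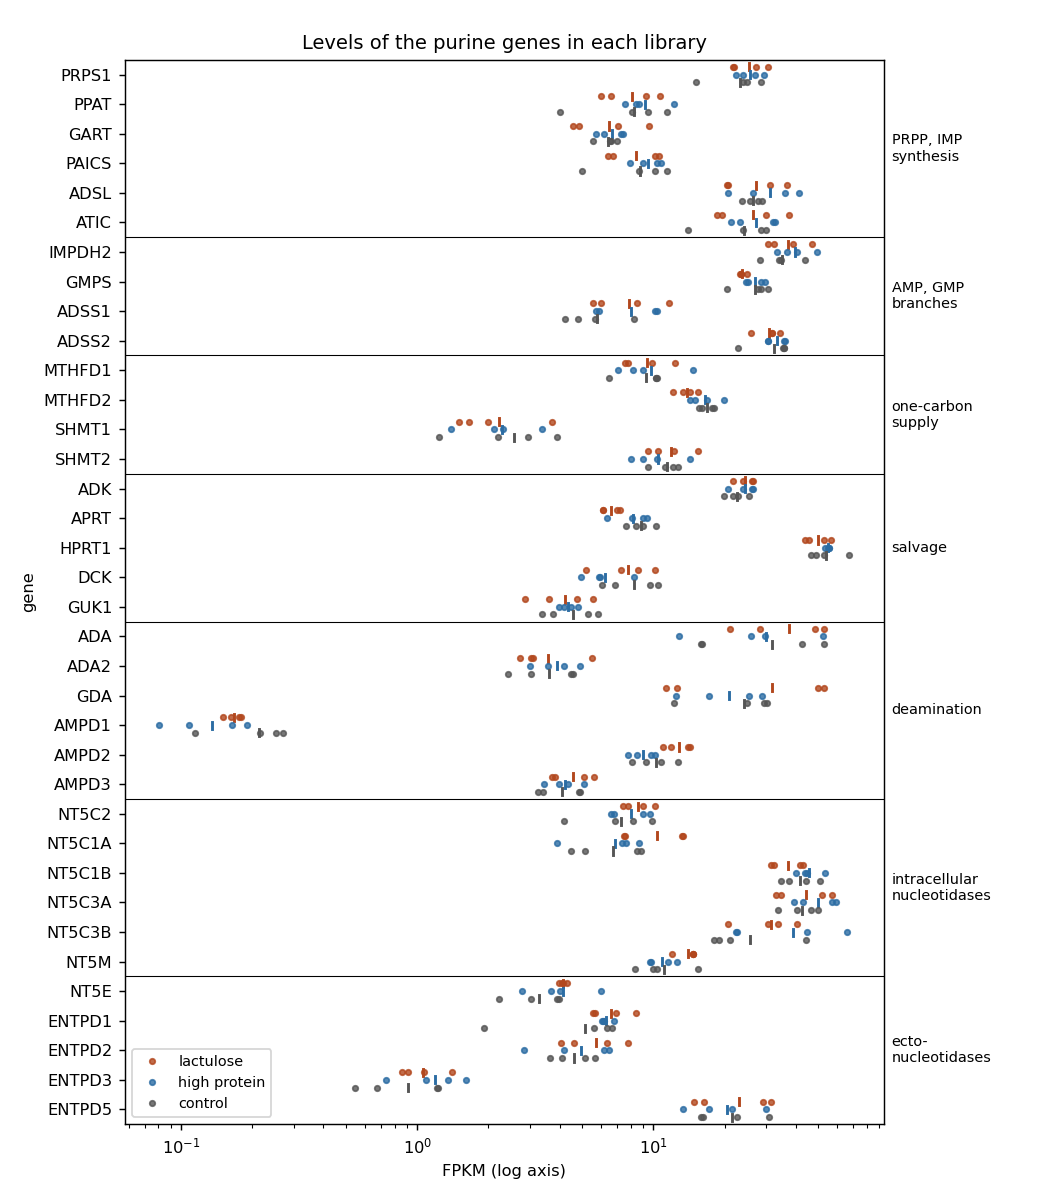
FPKM (log axis) of the 36 tested purine genes by step, each point 1 library and each short vertical line the mean of the 4 libraries of a diet (lactulose above high protein above control in each row). Levels span from 0.172 FPKM on average for AMPD1 to 52.8 FPKM for HPRT1, and the diets overlap in most rows.

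Among the genes of IMP synthesis, ADSL, an adenylosuccinate lyase that acts also in the AMP branch, averaged 28.3 FPKM, ATIC, which closes the ring of IMP, 25.9 and PRPS1, which makes phosphoribosyl pyrophosphate, 24.7. PPAT, the committed first step, averaged 8.54 FPKM, PAICS, which catalyses a pair of middle steps, 8.93 and GART, a trifunctional enzyme, 6.53. Summed over the 6 tested genes, the level was 136, 78.5, 79.5 and 115 FPKM in lactulose 2, 3, 5 and 6. It was 92.8, 113, 112 and 120 FPKM in high protein 1, 3, 4 and 5, and 67.3, 110, 112 and 100.2 FPKM in control 3, 4, 6 and 7. In FPKM, lactulose 2 held the highest and control 3 the lowest sum. Lactulose 3 and 5 lay below all libraries but control 3. FPKM carries no scaling factor (1.15 for lactulose 2 and 0.806 for control 3 in the fit). Scaled as in the fit, high protein 4 and 5 lay above lactulose 2, and control 3 lay above lactulose 3 and 5.

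In the branches, ADSS2, the widely expressed adenylosuccinate synthase, averaged 32.2 FPKM, GMPS, which makes GMP from XMP, 25.9 and ADSS1, the adenylosuccinate synthase known from muscle, 7.23. The summed level of the branch genes ranged over 91.7 to 118, 97.7 to 125 and 75.7 to 116 FPKM in lactulose, high protein and control libraries. One-carbon supply, which feeds formyl groups into the purine ring, was represented by the mitochondrial MTHFD2 (15.7 FPKM) and SHMT2 (11.2 FPKM) and the cytosolic MTHFD1 (9.49 FPKM) and SHMT1 (2.36 FPKM). MTHFD2 was above MTHFD1, SHMT2 above SHMT1 and ADSS2 above ADSS1 in 12 of 12 libraries.

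In FPKM, the sum of the salvage genes varied little. It was 87.6 to 98.6 FPKM in lactulose, 94.7 to 99.7 in high protein and 94.0 to 108 in control libraries. Lactulose 2 held the lowest and control 3 the highest sum, and FPKM carries no scaling factor (1.15 and 0.806 in the fit). Scaled as in the fit, these libraries lay farther apart, so the narrow span holds for FPKM only. Besides HPRT1 the salvage step held ADK, which phosphorylates adenosine (23.8 FPKM), APRT, which salvages adenine (7.89 FPKM), DCK, a deoxynucleoside kinase (7.44 FPKM), and GUK1, which takes GMP to GDP (4.37 FPKM).

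The sum of the deamination genes varied widely. It was 54.3, 119, 126 and 61.5 FPKM in lactulose 2, 3, 5 and 6. It was 97.9, 44.8, 62.8 and 68.2 FPKM in high protein 1, 3, 4 and 5, and 54.8, 91.5, 47.3 and 103 FPKM in control 3, 4, 6 and 7. High and low libraries occurred within each diet. Most of this sum came from ADA and GDA. ADA, which turns adenosine into inosine, ranged from 12.8 to 52.7 FPKM and GDA, which turns guanine into xanthine, from 11.4 to 52.9 FPKM. Their standard deviations of log2 CPM over the 12 libraries, 0.77 and 0.86, exceeded those of 85.1% and 87.7% of all genes tested. The median of the 36 purine genes was 0.30 and that of all genes 0.37. Among the AMP deaminases, AMPD2 (10.7 FPKM) was above AMPD3 (4.29 FPKM) in 12 of 12 libraries. ADA2, the secreted adenosine deaminase, averaged 3.70 FPKM.

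The intracellular nucleotidases held the largest share of the summed FPKM, 22.1 to 28.5% by library. NT5C3B, a 7-methylguanosine phosphate nucleotidase, ranged from 18.1 FPKM in control 3 to 65.8 FPKM in high protein 4. NT5M, the mitochondrial deoxyribonucleotidase, averaged 11.98 FPKM, NT5C1A, a cytosolic AMP nucleotidase, 8.01 and NT5C2, which prefers IMP and GMP, 7.97. In the ectonucleotidase family, ENTPD5, known in mammals as an endoplasmic reticulum enzyme, was the most abundant with 21.6 FPKM. ENTPD1, ENTPD2 and ENTPD3, which hydrolyse extracellular ATP and ADP, averaged 6.03, 5.08 and 1.06 FPKM, and NT5E, which makes adenosine from extracellular AMP, 3.85 FPKM.

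Genes that the table describes as relatives of the unmatched names are not members, and only their levels are given. A purine nucleoside phosphorylase-like gene, LOC125181624, averaged 14.4 ± 7.75 FPKM in lactulose, 9.06 ± 2.37 in high protein and 7.99 ± 3.37 in control libraries (SD, n = 4 each). LOC106033124, which the RefSeq gene table of another goose assembly names PNP, averaged 0.0167 FPKM over all libraries. The PFAS-like gene LOC125181727 averaged 1.58 ± 0.570 FPKM in lactulose, 1.14 ± 0.245 in high protein and 1.13 ± 0.543 in control libraries. Of 3 genes described as ENTPD8 or a like enzyme, LOC106037128 was the most abundant, with 27.2 ± 1.45 FPKM in lactulose, 24.7 ± 2.71 in high protein and 22.1 ± 3.497 in control libraries. LOC106037126, which the same RefSeq gene table names ENTPD8, averaged 5.03 ± 0.599 FPKM in lactulose, 5.00 ± 0.422 in high protein and 4.94 ± 0.519 in control libraries. LOC106037034 averaged 11.5 FPKM over all libraries. How reads shared by close relatives were counted is not given in the sources used here, so these levels are uncertain.

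**Figure D2:**
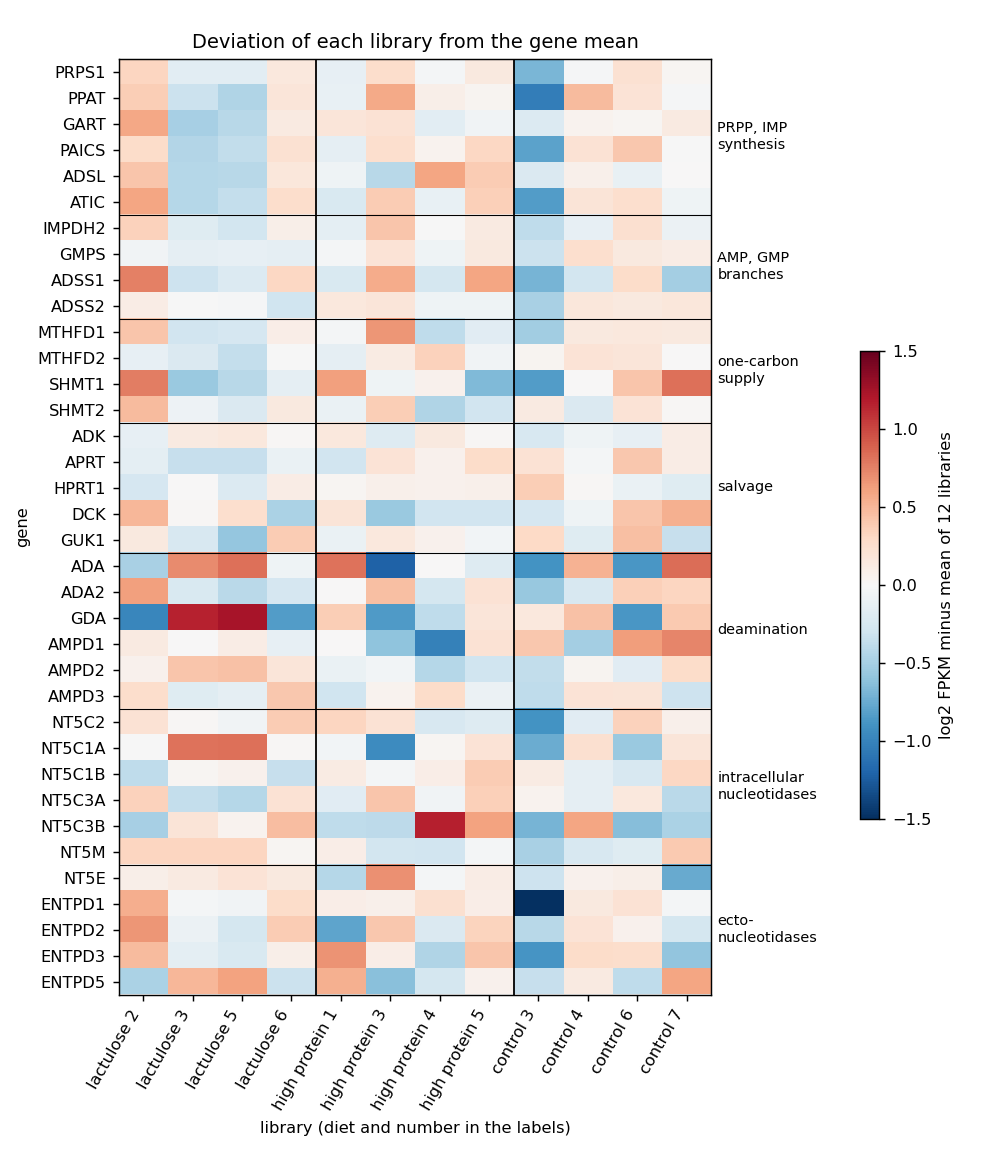
Deviation of each library from the gene's mean over 12 libraries, in log2 FPKM (colour, blue below and red above the mean), for the 36 tested genes in rows and the libraries in columns, lactulose left, high protein in the middle and control right. Lactulose 3 and 5 share a pattern of low IMP synthesis genes and high ADA and GDA, and 18 of 36 genes have their lowest FPKM in control 3. FPKM carries no scaling factor (0.806 for control 3 in the fit), and the share of all genes lowest there was not computed.

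The first comparison asked what lactulose added to the high protein diet. All 6 genes of IMP synthesis and all 4 branch genes had fitted differences below 0 in lactulose, and 5 of 6 deamination genes above 0, but no purine gene passed the test. Median log2 fold changes were -0.21 for IMP synthesis, -0.19 for the branches, -0.15 for one-carbon supply (3 of 4 below 0) and -0.15 for salvage (4 of 5 below 0). They were 0.22 for deamination, -0.13 for intracellular nucleotidases (3 of 6 below 0) and -0.03 for the ectonucleotidase family (3 of 5 below 0). Over all 36 genes the median was -0.14, with 24 below 0, and over all 16075 genes tested it was 0.02, with 7594 below 0. Without lactulose 3 and 5 the medians were -0.02 for IMP synthesis, 0.08 for one-carbon supply and 0.02 for deamination, while the branches stood at -0.18 (3 of 4 below 0), salvage at -0.26, intracellular nucleotidases at -0.04 and the ectonucleotidase family at -0.12. With 1 library left out at a time, the medians ranged from -0.33 to -0.12 for IMP synthesis, from -0.25 to -0.16 for the branches, from -0.28 to -0.03 for one-carbon supply and from -0.28 to -0.10 for salvage. They ranged from 0.03 to 0.39 for deamination, from -0.19 to -0.01 for intracellular nucleotidases and from -0.12 to 0.04 for the ectonucleotidase family. The ectonucleotidase family was above 0 without high protein 4, which also gave the value of -0.01 for intracellular nucleotidases. Deamination was lowest without high protein 3 and highest without high protein 1, and one-carbon supply was nearest to 0 without high protein 1.

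Genes were tested by quasi-likelihood in edgeR, with Benjamini-Hochberg adjustment over all 16075 genes. This called 0% of them, and 0 of 36 purine genes, at an adjusted p of 0.05. At an unadjusted p under 0.05 it held 4 of 36 purine genes, 1 higher and 3 lower, against 5.65% of all genes, 2.31% higher and 3.33% lower. DESeq2 called 18 genes (0.112%) and none of the 36, of which 4 had an unadjusted p under 0.05, against 7.37% of all genes.

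AMPD2, which deaminates AMP to IMP, had 10.99, 14.0, 14.2 and 11.9 FPKM in lactulose 2, 3, 5 and 6. It had 9.78, 10.2, 7.79 and 8.56 FPKM in high protein 1, 3, 4 and 5. In FPKM, each lactulose library was above each high protein library, a separation found for 6.5% of all genes tested and, of the 36, for AMPD2 alone. FPKM carries no scaling factor (1.15 for lactulose 2 and 0.964 for high protein 1 in the fit). Scaled as in the fit, AMPD2 in lactulose 2 (1417 counts) lay below high protein 1 (1472 counts), so this separation holds for FPKM only. Its log2 fold change and standard error were 0.42 ± 0.16 (edgeR adjusted p = 0.845, and no lower than 0.0513 over the alternatives). Without lactulose 3 and 5 it was 0.17.

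APRT had 7.00, 6.11, 6.12 and 7.24 FPKM in lactulose 2, 3, 5 and 6, against 6.39, 9.002, 8.11 and 9.39 FPKM in high protein 1, 3, 4 and 5. High protein 1 lay within the lactulose range, and the other high protein libraries lay above it. The log2 fold change was -0.40 ± 0.16 (edgeR adjusted p = 0.845). MTHFD2 had 14.3, 13.4, 12.2 and 15.5 FPKM in lactulose 2, 3, 5 and 6, against 14.2, 16.9, 19.9 and 15.0 FPKM in high protein 1, 3, 4 and 5. Its FPKM ranges overlapped. Scaled as in the fit, the highest lactulose library (lactulose 6, 1248 counts) and the lowest high protein library (high protein 1, 1273 counts) lay nearly level. The log2 fold change of MTHFD2 was -0.35 ± 0.15 (edgeR adjusted p = 0.845), or -0.20 without high protein 4. GMPS had 24.8, 23.4, 23.6 and 23.3 FPKM in lactulose 2, 3, 5 and 6, against 25.2, 29.6, 24.6 and 28.5 FPKM in high protein 1, 3, 4 and 5. In FPKM, lactulose 2 was above high protein 4 and the other values did not overlap. Scaled as in the fit, lactulose 2 (3883 counts, factor 1.15) lay below high protein 4 (4248 counts, factor 0.912). On that scale each lactulose library lay below each high protein library. The share of all genes so separated on that scale was not computed. The log2 fold change of GMPS was -0.26 ± 0.10 (edgeR adjusted p = 0.845).

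Markers and other groups of genes differed in sign between these libraries too. Of 20 enterocyte markers, 15 had positive fitted differences (median log2 fold change 0.28, 0 higher and 1 lower at an unadjusted p under 0.05). Enterocyte sums were 1589 to 6815 FPKM in lactulose and 1645 to 5918 FPKM in high protein libraries. All 24 cytosolic ribosomal protein genes had negative fitted differences, 12 of them at an unadjusted p under 0.05, with a median log2 fold change of -0.83. Their summed level was 21615 to 40266 FPKM in lactulose, against 39423 to 62511 FPKM in high protein libraries. All 13 macrophage and dendritic cell markers had negative differences (median -0.45, 8 at an unadjusted p under 0.05), with sums of 3124 to 3917 FPKM in lactulose and 3246 to 4267 FPKM in high protein. Of 11 T and NK cell markers, 10 were negative (median -0.36, 5 at an unadjusted p under 0.05), with sums of 208 to 265 FPKM in lactulose and 239 to 386 FPKM in high protein. None of these genes was called, none was at 0 in all libraries, and their part in the differences of the purine genes was not tested.

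**Figure D3:**
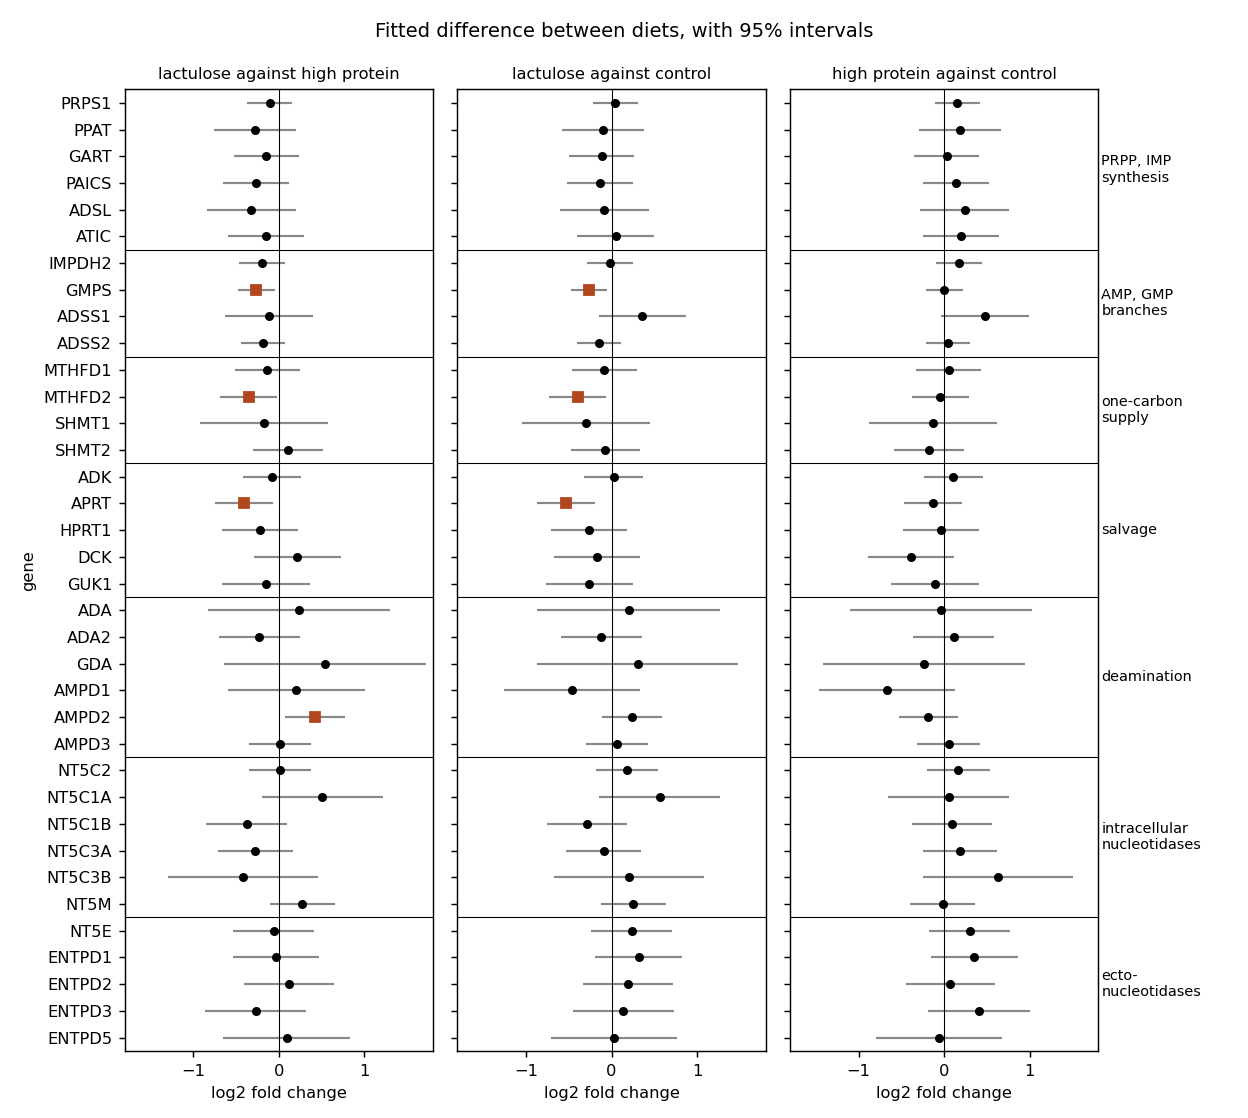
Fitted log2 fold change of each tested purine gene (point) with its 95% interval (line), for lactulose against high protein (left), lactulose against control (middle) and high protein against control (right). Squares mark unadjusted p under 0.05: GMPS, MTHFD2, APRT and AMPD2 in the left panel, GMPS, MTHFD2 and APRT in the middle panel and no gene in the right panel; no adjusted p passed 0.05.

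Lactulose was next compared with the control diet, which differs from it in both protein and lactulose. This comparison shares its lactulose libraries with the one above. Salvage and one-carbon genes lay lower in lactulose, with median log2 fold changes of -0.26 (4 of 5 below 0) and -0.19 (4 of 4), and the ectonucleotidase family lay higher, with 0.19 (5 of 5 above 0). No purine gene passed the test. The medians were -0.09 for IMP synthesis (4 of 6 below 0), -0.08 for the branches (3 of 4 below 0), 0.13 for deamination (4 of 6 above 0) and 0.20 for intracellular nucleotidases (4 of 6 above 0). Over the 36 genes the median was -0.04, with 19 below 0, and over all genes tested it was 0.00, with 8026 below 0. Several of these directions rested on lactulose 3 and 5. Without the pair, IMP synthesis stood at 0.17, one-carbon supply at 0.04 and deamination at -0.25, while salvage stood at -0.29 and the ectonucleotidase family at 0.29. Without lactulose 3 alone IMP synthesis stood at 0.01, and without lactulose 5 alone deamination stood at -0.04. Without control 3 the salvage median was -0.04. With 1 library left out at a time, the medians ranged from -0.20 to 0.01 for IMP synthesis, from -0.12 to -0.05 for the branches, from -0.27 to -0.08 for one-carbon supply and from -0.35 to -0.04 for salvage. They ranged from -0.04 to 0.20 for deamination, from 0.09 to 0.24 for intracellular nucleotidases and from 0.09 to 0.29 for the ectonucleotidase family. The values nearest to 0 came without lactulose 6 for the branches and intracellular nucleotidases, without control 7 for one-carbon supply and without control 3 for the ectonucleotidase family.

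At an adjusted p of 0.05, edgeR called 0% of the genes and 0 of the 36 purine genes. It gave an unadjusted p under 0.05 to 3 of the 36, all lower in lactulose, against 6.2% of all genes, 2.26% higher and 3.94% lower. DESeq2 called 22 genes (0.137%) and none of the 36, of which 3 had an unadjusted p under 0.05, against 7.85% of all genes.

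APRT, with the lactulose values given above, had 9.02, 7.62, 10.3 and 8.41 FPKM in control 3, 4, 6 and 7. All 4 lactulose libraries were below all 4 controls. APRT averaged 6.62 ± 0.589 FPKM in lactulose and 8.83 ± 1.12 FPKM in control libraries (SD, n = 4 each). The log2 fold change was -0.53 ± 0.16 (edgeR adjusted p = 0.771), and its adjusted p ranged no lower than 0.237 over the alternatives. MTHFD2 had 16.0, 18.0, 17.7 and 15.6 FPKM in control 3, 4, 6 and 7, all above its lactulose range of 12.2 to 15.5 FPKM. Its log2 fold change was -0.40 ± 0.15 (edgeR adjusted p = 0.771). FPKM ranges that did not overlap were found for 3.21% of all genes tested, and of the 36 for APRT and MTHFD2. GMPS had 20.5, 30.7, 28.4 and 27.8 FPKM in control 3, 4, 6 and 7, so that in FPKM control 3 lay below and the other controls above the lactulose range. Scaled as in the fit, where control 3 had a factor of 0.806, GMPS in control 3 (4092 counts) also lay above the lactulose range. The log2 fold change of GMPS was -0.26 ± 0.10 (edgeR adjusted p = 0.771).

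Beside these, all 23 markers of dividing cells had negative differences (median log2 fold change -0.37, 5 at an unadjusted p under 0.05). Their sums were 244 to 421 FPKM in lactulose and 267 to 430 FPKM in control libraries. All 24 ribosomal protein genes were negative as well (median -0.81, 13 at an unadjusted p under 0.05), with sums of 21615 to 40266 FPKM in lactulose and 24011 to 70852 FPKM in control libraries. Smooth muscle markers were positive for 12 of 13 genes (median 0.49, 1 at an unadjusted p under 0.05), with sums of 3585 to 9766 FPKM in lactulose and 3383 to 6536 FPKM in control libraries. Of 11 T and NK cell markers, 10 were negative (median -0.36, 4 at an unadjusted p under 0.05), with sums of 208 to 265 FPKM in lactulose and 241 to 437 FPKM in control libraries. Of 13 macrophage and dendritic cell markers, 9 were negative (median -0.15, 3 at an unadjusted p under 0.05), with sums of 3124 to 3917 FPKM in lactulose and 2284 to 4301 FPKM in control libraries. Enterocyte markers were positive for 14 of 20 genes (median 0.14). None was called, and their part in the differences of the purine genes was not tested.

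**Figure D4:**
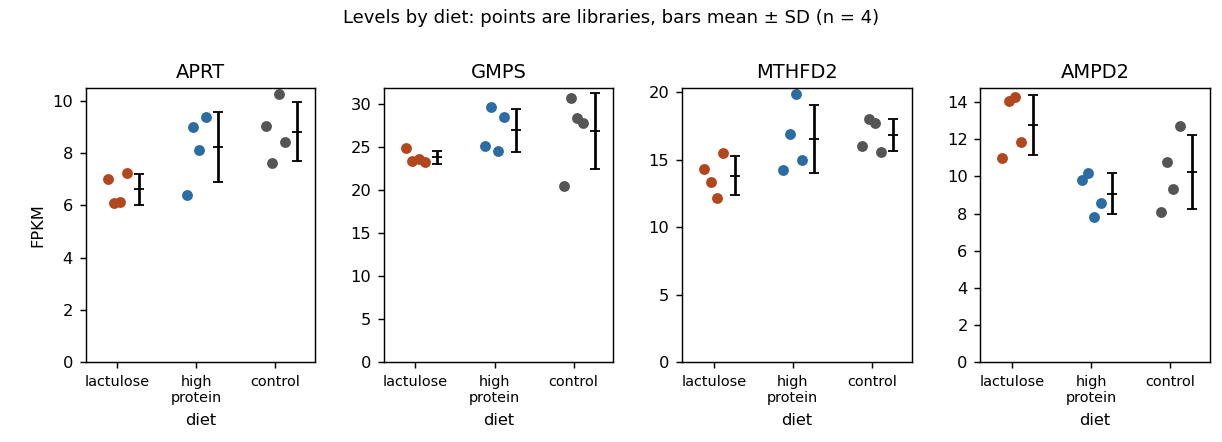
FPKM of APRT, GMPS, MTHFD2 and AMPD2 in each library (points) with mean ± SD of the 4 libraries (bars), for lactulose, high protein and control from left to right. In FPKM, APRT and MTHFD2 in lactulose lie below all control libraries, AMPD2 in lactulose lies above all high protein libraries, and GMPS of control 3 lies below the lactulose range. FPKM carries no scaling factor, and scaled as in the fit these placements of AMPD2 and of GMPS in control 3 do not hold.

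The last comparison asked how the high protein diet differed from the basal one. It shares its high protein and control libraries with the comparisons above. All 6 genes of IMP synthesis and all 4 branch genes had fitted differences above 0, small in size, with median log2 fold changes of 0.17 and 0.11. The ectonucleotidase family stood at 0.30 (4 of 5 above 0) and the intracellular nucleotidases at 0.13 (5 of 6 above 0). One-carbon supply stood at -0.09 (3 of 4 below 0), salvage at -0.10 (4 of 5 below 0) and deamination at -0.11 (4 of 6 below 0). The median over the 36 genes was 0.05, with 23 above 0, and that over all genes tested was -0.02, with 7419 above 0. The sign of 3 medians rested on 1 library each: salvage stood at 0.12 without control 3, deamination at 0.01 without high protein 3 and one-carbon supply at 0.02 without high protein 5. Other medians kept their sign but moved in size. IMP synthesis ranged from 0.08, without control 3, to 0.23, the branches from 0.08 to 0.14, and intracellular nucleotidases from 0.05, without high protein 5, to 0.17. The ectonucleotidase family stood at 0.13 without control 3 or high protein 3, at 0.14 without control 7 and at up to 0.37 otherwise. At the other end, deamination reached -0.33 without high protein 1, salvage -0.20 without control 4 and one-carbon supply -0.13 without high protein 4.

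No purine gene had an unadjusted p under 0.05 in edgeR, against 3.17% of all genes (1.31% higher and 1.86% lower), and 0% of the genes were called at an adjusted p of 0.05. DESeq2 called 8 genes (0.0498%) and none of the 36, of which 0 had an unadjusted p under 0.05, against 4.04% of all genes. FPKM ranges of no purine gene stood apart, against 1.44% of all genes. The smallest p belonged to ADSS1, with 5.88, 10.1, 5.70 and 10.4 FPKM in high protein 1, 3, 4 and 5, against 4.23, 5.67, 8.28 and 4.81 FPKM in control 3, 4, 6 and 7. High protein libraries fell into a higher and a lower pair, and control 6 lay between them. The log2 fold change of ADSS1 was 0.48 ± 0.24 (edgeR adjusted p = 1), or 0.32 without high protein 5.

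AMPD1 had 0.164, 0.107, 0.0807 and 0.189 FPKM in high protein 1, 3, 4 and 5, against 0.216, 0.115, 0.253 and 0.270 FPKM in control 3, 4, 6 and 7. Only control 4 lay within the high protein range. Its log2 fold change was -0.67 ± 0.37 (edgeR adjusted p = 1). AMPD1 shares 288 bases with DENND2C (4.90 FPKM) on the same strand, and reads of both genes cannot be told apart there. DCK had 8.27, 4.92, 5.92 and 5.91 FPKM in high protein 1, 3, 4 and 5, against 6.07, 6.87, 9.66 and 10.5 FPKM in control 3, 4, 6 and 7. Its ranges overlapped through high protein 1, and its log2 fold change was -0.39 ± 0.23 (edgeR adjusted p = 1), or -0.25 without high protein 3. The macrophage and dendritic cell markers were all positive in this comparison (13 of 13, median 0.39, 4 at an unadjusted p under 0.05, sums of 3246 to 4267 FPKM in high protein and 2284 to 4301 FPKM in control libraries). Smooth muscle markers were positive for 13 of 13 genes (median 0.37) and dividing cell markers negative for 22 of 23 (median -0.26). Their part in the purine genes' values was not tested.

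The intervals of the fitted differences show what size of change these libraries could have hidden. For GDA the 95% interval ran from -0.64 to 1.72 in lactulose against high protein, from -0.87 to 1.48 in lactulose against control and from -1.41 to 0.94 in high protein against control. For PRPS1 it ran from -0.37 to 0.15, from -0.21 to 0.30 and from -0.10 to 0.41 in the same order. Ratios within a library of enzymes that share a step were tested with 2-sided exact permutations, whose 70 arrangements allow no p below 0.0286. Of 8 pairs, 5 could be tested in 3 comparisons each, and 0 of the 15 tests passed after adjustment. The smallest exact p was 0.171, for ADSS1 over ADSS2, whose mean log2 ratio was -2.03 ± 0.51 in lactulose and -2.52 ± 0.34 in control libraries (SD, n = 4 each).

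In FPKM, ADA and GDA spanned 4.12-fold and 4.66-fold between the extreme libraries. Both were related to the enterocyte level, the mean over the 20 markers of log2 CPM after centring each gene. This level ran from -1.36 in lactulose 2 to 0.97 in high protein 1. Correlations were computed over the 12 libraries for each tested gene outside the marker list, with 100000 permutations and adjustment over all genes and over both marker lists used. Of the 36 purine genes, 4 were called, all positive, against 4.7% of all genes called positive and 1.23% called negative. A further 12 purine genes had an unadjusted permutation p under 0.05 and did not pass, so that 16 of the 36 were under it, against 25.2% of all genes.

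ENTPD5 had 14.9, 29.1, 31.4 and 16.4 FPKM in lactulose 2, 3, 5 and 6. It had 29.9, 13.3, 17.2 and 21.6 FPKM in high protein 1, 3, 4 and 5, and 16.2, 22.6, 15.9 and 31.0 FPKM in control 3, 4, 6 and 7. Each diet thus held both high and low libraries. Its Pearson r with the enterocyte level was 0.94 (permutation p = 1.0e-05, the smallest that 100000 permutations can give, adjusted p = 0.00446) and its Spearman rho 0.88 (permutation p = 0.00028). Without lactulose 2 and control 6, the libraries farthest from the median, r was 0.93.

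GDA had 11.4, 49.8, 52.9 and 12.5 FPKM in lactulose 2, 3, 5 and 6. It had 28.9, 12.4, 17.2 and 25.3 FPKM in high protein 1, 3, 4 and 5, and 24.9, 30.3, 12.2 and 29.3 FPKM in control 3, 4, 6 and 7. The lowest values, near 12 FPKM, occurred in all 3 diets, and the highest were those of lactulose 3 and 5. Its r was 0.92 (permutation p = 5.0e-05, adjusted p = 0.0075), rho 0.91 (permutation p = 0.0001), and r without lactulose 2 and control 6 was 0.88.

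ADA had 21.2, 48.33, 52.6 and 28.4 FPKM in lactulose 2, 3, 5 and 6. It had 52.0, 12.8, 29.6 and 25.95 FPKM in high protein 1, 3, 4 and 5, and 15.9, 42.4, 16.1 and 52.7 FPKM in control 3, 4, 6 and 7. Each diet had at least 1 library near 52 FPKM. Its r was 0.85 (permutation p = 0.00067, adjusted p = 0.0309) and rho 0.82 (permutation p = 0.00185). The r was 0.80 without lactulose 2 and control 6, but the call for ADA was lost without any 1 of 10 libraries, all but control 3 and control 4. Adjusted p-values were then 0.051 to 0.0888.

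ADK had 21.7, 26.04, 26.4 and 23.9 FPKM in lactulose 2, 3, 5 and 6. It had 26.5, 20.8, 26.2 and 24.0 FPKM in high protein 1, 3, 4 and 5, and 19.96, 22.7, 21.8 and 25.5 FPKM in control 3, 4, 6 and 7. In FPKM, the span of ADK was narrow, 1.32-fold between the extreme libraries. Scaled as in the fit, it was wider, from lactulose 2 (2073 counts) to high protein 4 (2763 counts). Its r was 0.93 (permutation p = 0.0001, adjusted p = 0.0105), rho 0.88 (permutation p = 0.00042) and r without lactulose 2 and control 6 0.87. On FPKM, where control 3 stood apart, r of ADK was 0.72 and the call was lost (adjusted p = 0.139).

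Lactulose 2, control 6 and high protein 3 lay together at the low end of the enterocyte level. In the other 9 libraries r was 0.87 for ENTPD5 (permutation p = 0.00265), 0.84 for GDA (permutation p = 0.0038), 0.70 for ADK (permutation p = 0.037) and 0.55 for ADA (permutation p = 0.12), all unadjusted. With lactulose 3 and 5 averaged into 1 library, r was 0.93, 0.92, 0.93 and 0.83 for the same genes, and ADA was no longer called. With gene and marker levels centred within each diet, r was 0.95, 0.94, 0.94 and 0.87, and 10 of the 36 genes were called, 7 positive and 3 negative, against 8.89% of all genes called positive and 4.65% called negative. The permutations exchanged libraries across diets and made no allowance for the centring, so the p-values behind these calls may be too small.

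With levels centred within each diet, the lowest r with the enterocyte level were those of IMPDH2 (-0.89), ADSS1 (-0.82) and ATIC (-0.79), all genes of the synthesis steps. Without centring, no gene of the synthesis steps passed the adjusted threshold over all 12 libraries, and the values that follow are without centring. In IMP synthesis 5 of 6 genes had a negative r with the enterocyte level, with ADSL at 0.08, and the median was -0.61. The branches were mixed, with GMPS at 0.21 and ADSS2 at 0.33, the other two negative and a median of -0.23. In one-carbon supply 3 of 4 were negative, with a median of -0.28. The median over all 36 purine genes was -0.19 and that over all genes -0.01. ATIC had the lowest value, r = -0.74 (permutation p = 0.00686, adjusted p = 0.109), followed by IMPDH2 with -0.72 (permutation p = 0.00993, adjusted p = 0.136). Without the 3 libraries of lowest enterocyte level, r was -0.76 for ATIC (permutation p = 0.0192) and -0.50 for IMPDH2 (permutation p = 0.174), both unadjusted. ATIC ranged from 13.9 FPKM in control 3 to 37.6 FPKM in lactulose 2, and IMPDH2 from 28.3 FPKM in control 3 to 49.3 FPKM in high protein 3. These extremes hold for FPKM. Scaled as in the fit, IMPDH2 in control 3 (2882 counts) lay above lactulose 5 (2571 counts). Deamination genes had a median r of 0.43, intracellular nucleotidases of 0.50, salvage genes of 0.32 and the ectonucleotidase family of -0.26, with ENTPD5 the only positive member of the last.

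**Figure D5:**
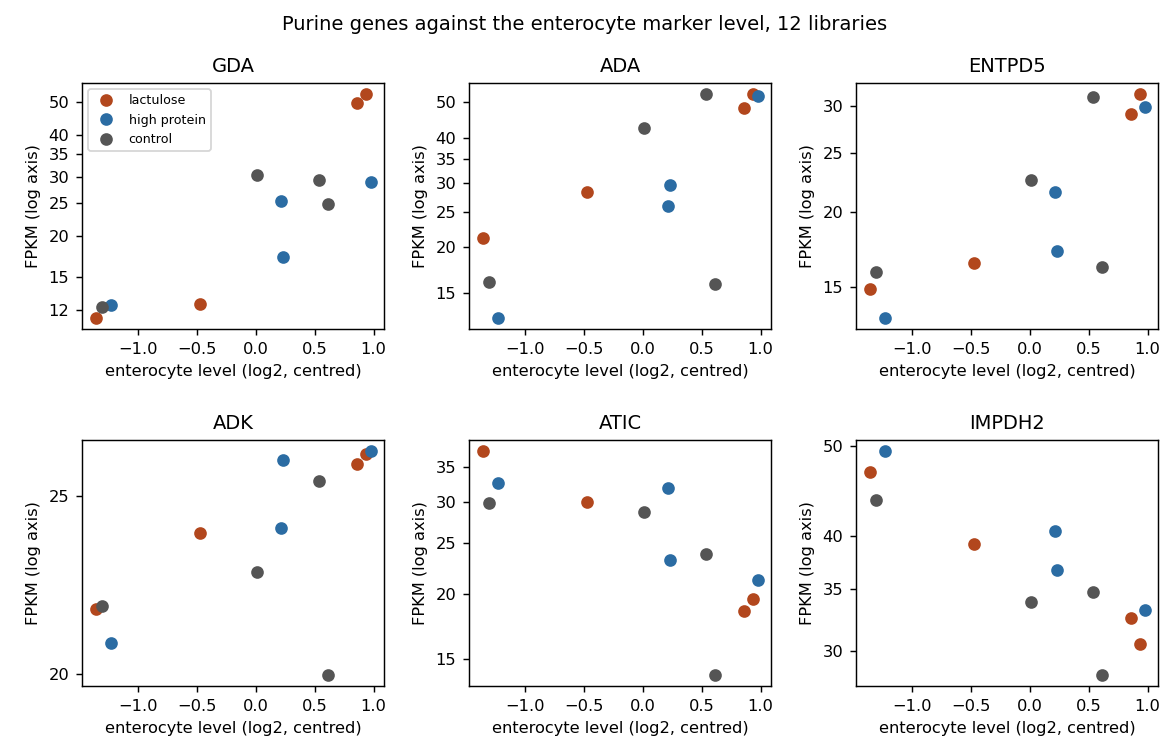
FPKM (log axis) of GDA, ADA, ENTPD5, ADK, ATIC and IMPDH2 against the enterocyte marker level (mean of centred log2 CPM over 20 markers), each point 1 of 12 libraries coloured by diet. GDA, ADA, ENTPD5 and ADK lie higher and ATIC and IMPDH2 lower where the enterocyte level is high, in libraries of all 3 diets. In FPKM, control 3 lies below control 7 and lactulose 3, the libraries nearest to it in level, for each of these genes. FPKM carries no scaling factor, while the marker level is scaled as in the fit (0.806 for control 3). Scaled likewise, control 3 does not lie below control 7 for ADK (2438 against 2570 counts), GDA (11681 against 11362) and IMPDH2 (2882 against 2922). It still does for ADA (1544 against 4223 counts), ENTPD5 (4628 against 7317) and ATIC (1576 against 2227).

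The dividing cell level, built likewise from 23 markers, ran from -0.52 in high protein 3 to 0.51 in control 7 and had no detectable relation to the enterocyte level (r = 0.01, permutation p = 0.984, adjusted p = 0.984; rho = -0.11, permutation p = 0.732; r = 0.48 without the farthest pair of libraries). Of the 36 purine genes, 1 was called, NT5E, with r = -0.79 (permutation p = 0.00101, adjusted p = 0.0387) and rho -0.78 (permutation p = 0.00467). Of all genes 0.498% were called positive and 0.0623% negative. NT5E had 3.98, 4.11, 4.30 and 4.15 FPKM in lactulose 2, 3, 5 and 6, 2.77, 6.01, 3.66 and 4.04 FPKM in high protein 1, 3, 4 and 5, and 3.02, 3.90, 3.99 and 2.21 FPKM in control 3, 4, 6 and 7. Without high protein 3 and control 7, the farthest pair, r of NT5E was -0.56. On log2(FPKM + 0.1) it was -0.48 and the call was lost. The call was also lost without any 1 of 8 libraries. SHMT1 (r = 0.75, permutation p = 0.00632, adjusted p = 0.105) and DCK (r = 0.73, permutation p = 0.00788, adjusted p = 0.119) had the highest positive values and were not called. The 6 genes of IMP synthesis had a median r of 0.15.

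PPAT and PAICS lie head to head. The deposited table places PPAT at 309802 to 327013 on the minus strand and PAICS at 326641 to 366654 on the plus strand of the same scaffold, with 373 bases in common, on an assembly whose name is not given in the sources used here. PPAT had 10.6, 6.59, 6.01 and 9.34 FPKM in lactulose 2, 3, 5 and 6, 7.57, 12.2, 8.70 and 8.41 FPKM in high protein 1, 3, 4 and 5, and 4.001, 11.4, 9.48 and 8.14 FPKM in control 3, 4, 6 and 7. PAICS had 10.6, 6.42, 6.74 and 10.2 FPKM in lactulose 2, 3, 5 and 6, 7.92, 10.4, 9.02 and 10.7 FPKM in high protein 1, 3, 4 and 5, and 5.00, 10.1, 11.5 and 8.66 FPKM in control 3, 4, 6 and 7. In FPKM, both were low in lactulose 3 and 5 and lowest in control 3. Scaled as in the fit, PPAT was still lowest in control 3 (774 counts), while PAICS there (1269 counts) was about level with lactulose 3 (1465 counts). Their log2 CPM values correlated over the 12 libraries with r = 0.84 (permutation p = 0.00097, adjusted p = 0.00194) and rho = 0.67 (permutation p = 0.0203, adjusted p = 0.0406), and r was 0.68 without the 2 libraries farthest from the median of PPAT. The adjustment covered only this relation and that between the marker levels. How many other gene pairs correlate as strongly was not computed. Whether counting used the strand is not given, so reads in the shared bases may have counted for either gene. In all, 11 purine genes overlap another gene, 9 of them on the opposite strand. Among these, NT5M lies over its whole length, 13727002 to 13734780, within COPS3 (42.6 FPKM, 7779 bases shared). Its whole level is uncertain if counting ignored the strand. AMPD3 shares 698 bases with RNF141 (21.1 FPKM) and MTHFD2 15 with MOB1A (127 FPKM), and their levels are uncertain to that extent.

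Neighbouring pathways gave few genes at an unadjusted p under 0.05, and edgeR called none of them at its adjusted threshold. Of the urate formation and transport list, which holds xanthine dehydrogenase, 6 genes were tested and 0 had an unadjusted p under 0.05 in any comparison. Their median log2 fold changes were 0.20 (5 of 6 above 0) in lactulose against high protein, 0.03 (3 of 6) in lactulose against control and -0.06 (2 of 6) in high protein against control. XDH had 9.76, 23.2, 24.5 and 9.17 FPKM in lactulose 2, 3, 5 and 6, 19.5, 7.39, 11.7 and 13.8 FPKM in high protein 1, 3, 4 and 5, and 11.2, 14.6, 10.7 and 23.3 FPKM in control 3, 4, 6 and 7. Lactulose 3 and 5, the nearly identical libraries, thus formed a high pair and lactulose 2 and 6 a low one. The values of the diets overlapped. XDH was named after its values were seen.

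In the folate and methionine cycle, 21 genes were tested, and 2 had an unadjusted p under 0.05 in lactulose against high protein, 1 in lactulose against control and 2 in high protein against control. AHCY, which clears S-adenosylhomocysteine and releases adenosine, averaged 177 ± 45.7 FPKM in lactulose and 284 ± 46.2 FPKM in high protein libraries (SD, n = 4 each). Its log2 fold change was -0.78 ± 0.22 in lactulose against high protein (edgeR adjusted p = 0.845). AHCY averaged 204 ± 45.3 FPKM in control libraries, and high protein against control gave 0.49 ± 0.22 (edgeR adjusted p = 1). MAT2A, which makes S-adenosylmethionine, averaged 46.2 ± 4.21 FPKM in lactulose and 34.0 ± 2.08 FPKM in high protein libraries, with a log2 fold change of 0.35 ± 0.12 (edgeR adjusted p = 0.845). SLC46A1, a folate transporter, averaged 8.30 ± 1.79 FPKM in lactulose and 17.8 ± 10.6 FPKM in control libraries, where control 3 alone had 32.4 FPKM, with a log2 fold change of -1.30 ± 0.45 (edgeR adjusted p = 0.771). GLDC, the glycine decarboxylase, averaged 2.95 ± 3.55 FPKM in high protein and 0.769 ± 0.506 FPKM in control libraries, with a log2 fold change of 2.03 ± 0.80 (edgeR adjusted p = 1).

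Pyrimidine synthesis and salvage, 19 genes tested, had 2 genes under 0.05 in lactulose against high protein, 1 in lactulose against control and 0 in high protein against control. TK1, thymidine kinase, averaged 29.5 ± 5.49 FPKM in lactulose, 38.2 ± 10.4 in high protein and 40.8 ± 4.02 in control libraries. Its log2 fold changes were -0.49 ± 0.20 against high protein (edgeR adjusted p = 0.845) and -0.58 ± 0.20 against control (edgeR adjusted p = 0.771). DCTD, the deoxycytidylate deaminase, averaged 9.397 ± 3.60 FPKM in lactulose and 13.8 ± 3.72 FPKM in high protein libraries (log2 fold change -0.69 ± 0.30). RRM2, a ribonucleotide reductase subunit, was the 1 of 8 genes of nucleotide reduction and pool cleaning under 0.05, in lactulose against control, with 18.4 ± 3.99 FPKM in lactulose and 24.1 ± 6.40 FPKM in control libraries.

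The other lists held 1 gene under 0.05 at most in any comparison. Of 13 nucleotide kinases, NME6 averaged 10.8 ± 1.14 FPKM in lactulose and 13.9 ± 2.41 FPKM in control libraries (log2 fold change -0.51 ± 0.19). Of 12 other extracellular nucleotide enzymes, ENPP4 averaged 18.5 ± 1.51 FPKM in lactulose and 21.2 ± 2.06 FPKM in control libraries (log2 fold change -0.32 ± 0.15). Of 7 nucleoside transporters and adenosine receptors, ADORA1, the adenosine A1 receptor, averaged 0.142 ± 0.0732 FPKM in high protein and 0.508 ± 0.431 FPKM in control libraries (log2 fold change -1.99 ± 0.78).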

How the data were processed

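The deposited table gives, per the file headers, raw counts and FPKM for every gene and sample. FPKM is the authors' scaling to transcript length and library size, and counts were proportional to FPKM within 1% for 99.6% of 11594 genes checked. Per the labels' protocols, libraries came from a strand-specific kit. Tools named without roles in the submitters' processing notes are DESeq2, edgeR, StringTie 2.1.6, HISAT2 2.2.1 and cutadapt 1.9, and the genome build is not given in the sources used here. Counts clustered at 4 (5063 times, against 1799 at 3 and 1526 at 5), so a count need not be 1 read, and dividing counts by 4 was tried. The table held 0 columns of other samples and 0 lines without a gene name.

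Diets and library numbers were taken from the sample titles. Diets were compared by quasi-likelihood in edgeR 4.0.16 (R 4.3.3; TMM, filterByExpr with minimum count 10) on all 12 libraries together, modelling diet alone (9 residual degrees of freedom), Benjamini-Hochberg adjustment over 16075 genes and a threshold of 0.05. Standard errors were derived from the log2 fold change and F. Alternatives used DESeq2 1.42.0, limma 3.58.1, other scalings and filters, log2(FPKM + 1) and log2(FPKM + 0.1), lactulose 3 and 5 averaged or left out, a replicate block, and each library left out. Correlations and ratios were computed in Python 3.11.15 with scipy 1.17.1. The p-values of correlations with marker levels were adjusted over all genes and both marker lists, where the first plan was to adjust over the members and both lists. Those of PPAT with PAICS and of the marker levels with each other were adjusted over these relations alone. The code was tested on simulated data.

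The members, gene lists and tests were chosen with earlier results of these data known. All members are named by level. Those with an unadjusted p under 0.05 in a comparison are given in full, or the 3 of smallest p where there are none, together with up to 2 genes of each neighbouring list under 0.05. Of the gene identifiers 17685 matched a RefSeq gene table of another goose assembly, which was used for names only, and 2151 did not. The deviations of same-numbered libraries of different diets correlated with r from -0.13 to 0.20. Differently numbered libraries were not compared in this way, so these values do not show whether numbers mark pairs. The labels do not pair libraries by number, and numbers were not taken as pairs in the main fit.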

Additional observations from a re-analysis of the deposited data

Results flagged for a closer look

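Each purine gene's 4 libraries within a diet were searched for 1 library far from the others, by the gap to the nearest library over the whole range, against Dixon's 95% critical value. Of 108 groups, 8 held such a library, and chance gives about 5% of groups. The search used FPKM, which carries no scaling factor, so a flag holds for FPKM only. Control 3 held 2 of them, the lowest value of ADSS2 (22.7 FPKM, against 35.2 to 35.9 FPKM in the other controls) and of MTHFD1 (6.47 FPKM, against 10.2 to 10.3 FPKM). Scaled as in the fit, where its factor was 0.806, control 3 lay nearer to the other controls for both genes. Lactulose 2 held 2, the highest value of ADA2 (5.48 FPKM, against 2.71 to 3.07 FPKM in the other lactulose libraries) and of GMPS (24.8 FPKM, against 23.3 to 23.6 FPKM). NT5M was lowest in lactulose 6 (11.99 FPKM, against 14.7 FPKM in each of the others). NT5C3B was highest in control 4 (44.4 FPKM, against 18.1 to 21.1 FPKM). HPRT1 was lowest in high protein 1 (53.4 FPKM, against 55.0 to 55.3 FPKM) and ENTPD1 highest in high protein 4 (6.79 FPKM, against 6.08 to 6.18 FPKM), where the other 3 libraries lay close together.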

How the results depend on the processing

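The count of purine genes called was 0 in each diet comparison under each alternative run, and ratios of paired enzymes gave 0 calls throughout. Over all genes, high protein against control gave 8 calls in DESeq2, 1 with upper-quartile scaling, 1 without the filter on low counts and 1 in limma with either pseudocount. Lactulose against high protein gave 18 calls in DESeq2 and 123 in limma voom with sample quality weights, and lactulose against control 22 in DESeq2, 1 without the filter and 1 in limma with either pseudocount. Leaving out 1 library gave 0 to 1 calls in each comparison. Scalings left the median of all genes within 0.1, except 0.10 for lactulose against control with log2(FPKM + 0.1).

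Labels give some diets the same replicate numbers, and nothing in the labels used here says whether such libraries share more than a number. Lactulose 2, high protein 1 and control 7 share their number with no other library. A replicate block fits these libraries exactly, so they inform no diet comparison in that fit. With a replicate block (3 residual degrees of freedom) 0 genes were called in each comparison, and 12, 4 and 2 purine genes had an unadjusted p under 0.05 in lactulose against high protein, lactulose against control and high protein against control, against 9.44%, 4.54% and 4.07% of all genes. In limma voom with weights the purine counts were 14, 9 and 0 in the same order, against 24.6%, 14.1% and 5.8% of all genes. In the fit with the replicate block, deamination in high protein against control stood at -0.36. The branches and intracellular nucleotidases in lactulose against high protein stood at -0.32 and 0.071 there.

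Step medians moved by more than their spread under these further settings. In limma voom with weights, salvage in high protein against control was 0.15, and in lactulose against control IMP synthesis was -0.34 and the ectonucleotidase family 0.037. In limma on FPKM with either pseudocount the branches were -0.10 in lactulose against high protein and 0.017 in lactulose against control. Without lactulose 3 and 5, chosen after seeing the data, one-carbon supply was 0.084 in lactulose against high protein, and in lactulose against control IMP synthesis was 0.17, one-carbon supply 0.041 and deamination -0.25. Leaving out 1 library, the high protein against control medians ranged from -0.20 to 0.12 for salvage, from -0.33 to 0.0066 for deamination and from 0.13 to 0.37 for the ectonucleotidase family, and salvage in lactulose against control from -0.35 to -0.036. The cause was not tested.

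Leaving out 1 library, chosen after seeing the data, 3 to 5 of the 36 purine genes were related to the enterocyte level, against 2.77% to 7.51% of all genes. The count was 10 after centring within each diet, against 13.5% of all genes, 3 on log2(FPKM + 0.1), against 3.35%, and 3 with lactulose 3 and 5 averaged, against 3.55%. The permutations made no allowance for the centring, so the count and share after centring may be too high. For the dividing cell level the count was 0 to 1 leaving out 1 library, against 0.243% to 0.816% of all genes, 0 on log2(FPKM + 0.1) and 0 with lactulose 3 and 5 averaged. PRPS2, with 4 counts in all, could not be tested at this depth.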
